A study of Mus musculus with 6 samples.

Results

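Integrins are heterodimeric receptors, each made of an alpha and a beta subunit, that join the extracellular matrix or another cell's surface to the actin cytoskeleton. The alpha subunit largely sets the ligand, while the beta subunit carries the cytoplasmic tail that talin and kindlin bind to activate the receptor. In mammary epithelium and its tumours the laminin, collagen and fibronectin receptors govern adhesion, polarity and migration, and the receptors built on the alpha-v subunit also release latent TGF-beta.

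The genes described here are 10 integrin subunit genes, 5 alpha (Itgav, Itga2, Itga3, Itga5, Itga6) and 5 beta (Itgb1, Itgb3, Itgb5, Itgb7, Itgb8), taken by their symbols from a table of 55571 gene symbols. The table holds 27 integrin subunit genes in all. Of the 10, 9 passed the filter on low counts, and Itgb8 had no count in any library.

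RNA was sequenced from E0771, a mouse mammary carcinoma cell line that the labels call a cancer cell. The Malt1-WT group (3 libraries) expressed introduced wild-type Malt1, which encodes a paracaspase that acts upstream of NF-kB. The vector control group (3 libraries) expressed the vector alone, and both groups were at the basal condition, with no stimulus named. The sources used here do not give how the constructs were delivered or whether each line is a clone or a pool. Since no label ties the libraries to separate cultures, the p-values reflect sample-to-sample spread that may be purely technical.

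Library totals ranged from 17601656 to 20543778 counts. Malt1 itself had 309, 308 and 297 CPM in Malt1-WT, against 28.5, 31.1 and 30.4 CPM in the vector control, as the labels imply. CPM are counts scaled to library totals that TMM had corrected for differences in make-up. Of 9 epithelial markers 2 were abundant enough to test. Krt8 had 59.7 CPM in Malt1-WT and 68.6 CPM in the vector control, Epcam had 6.23 and 6.31 CPM in the same order, and Krt18 and Cdh1 were below 0.5 CPM in both groups. Krt5 was at 0, so several defining epithelial transcripts were at or near 0 in this carcinoma line. Of 8 fibroblast markers 6 were testable, 2 rose and 2 fell. The stromal receptor genes Pdgfra (116 CPM in Malt1-WT, 161 CPM in the vector control) and Pdgfrb (224 and 151 CPM in the same order) were detected in both groups. Dcn (15.7 CPM in Malt1-WT, 16.7 CPM in the vector control) and Col1a1 (10.9 and 20.1 CPM in the same order) were detected in both groups too. The rest of that list was low. Thy1 was at 0, and Col1a2 had 1 count over the Malt1-WT group and 30 over the vector control. Lum (27 and 32 counts in the same order) and Fap (42 and 13) were below 1 CPM in both groups. In RNA from bulk cultures, fewer cells of a type and less RNA per cell cannot be told apart.

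All values below are TMM-scaled CPM unless said otherwise. Changes are log2 fold changes of Malt1-WT over vector control from the edgeR quasi-likelihood test, with a standard error (SE) and a p adjusted by Benjamini-Hochberg over 13594 tested genes. In Malt1-WT, 6 of the 9 tested integrin genes rose and 3 fell at an adjusted p under 0.05, and the background is high, since 61.2% of all tested genes were called (31.0% higher and 30.2% lower). With the added demand of a change of at least 1.5-fold, 4 rose and 1 fell, where 24.8% of all tested genes passed (14.5% higher and 10.4% lower). The median log2 fold change of the 9 was 0.53, beside -0.003 over all tested genes. The members were chosen with results of these data known, so these counts only describe them. The largest changes were in Itgb3 and Itga2, 11.0-fold higher for Itga2 and 10.9-fold for Itgb3 in Malt1-WT, and in Itgb7, which was 2.74-fold lower. The Itga2 fold depends on 1 library, since vector control replicate 2 holds 15 of the 25 vector control counts and the log2 fold change was 4.15 without it, beside 3.46 with it. The groups did not overlap in CPM for any of the 9 genes, and they did not overlap for 64.4% of all tested genes.

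**Figure D1:**
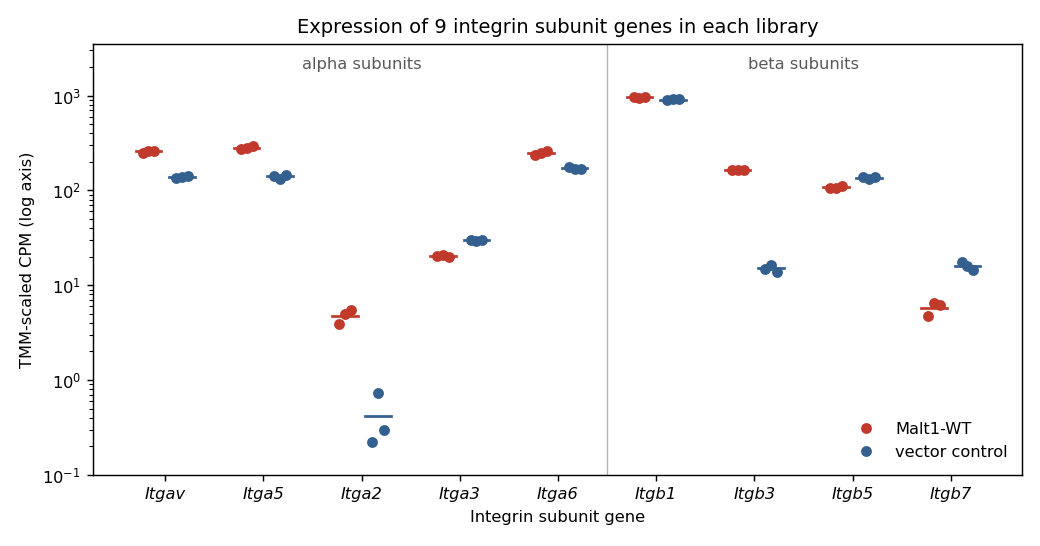
TMM-scaled CPM (log axis) of the 9 tested integrin genes in each library, Malt1-WT in red on the left and vector control in blue on the right of each pair, with bars at the means of 3 libraries. The groups did not overlap for any of the 9 genes (64.4% of all tested genes), with the widest gaps for Itga2 and Itgb3 and the narrowest for Itgb1 (952 to 977 CPM against 892 to 915 CPM).

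Of the members, the alpha subunits that bind the RGD motif, Itgav and Itga5, both rose. Itgav (ENSMUSG00000027087.11, chromosome 2, 83724397 to 83806916, plus strand, GRCm38) encodes the alpha-v chain, which pairs with Itgb1, Itgb3, Itgb5, Itgb6 or Itgb8. It had 250, 261 and 261 CPM in Malt1-WT, against 135, 140 and 142 CPM in the vector control. Every Malt1-WT library was above every vector control library, and the rise was 1.85-fold (log2 fold change 0.89, SE 0.0341, edgeR adjusted p = 1.57e-28). Itga5 (chromosome 15, 103344286 to 103366763, minus strand) encodes the alpha chain of the classical fibronectin receptor, formed with Itgb1. Its level was 271, 280 and 291 CPM in Malt1-WT, against 141, 133 and 147 CPM in the vector control. Again the groups were apart (log2 fold change 1.0, SE 0.0359, edgeR adjusted p = 1.16e-29).

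Itga2 (chromosome 13, 114833081 to 114932100, minus strand) encodes the alpha chain of a collagen receptor formed with Itgb1. It was counted 70, 99 and 93 times in Malt1-WT, against 4, 15 and 6 times in the vector control, or 4.77 ± 0.777 CPM against 0.419 ± 0.278 CPM (SD, n = 3 each). All Malt1-WT libraries lay above all vector control libraries. The log2 fold change of 3.46 (SE 0.297, 95% interval 2.87 to 4.06, edgeR adjusted p = 1.04e-14) rests on 25 counts in the vector control group, so its size is less certain than that of the other members. Its neighbour Itga1 (chromosome 13, 114953096 to 115101964), which encodes the alpha chain of a second collagen receptor, fell (values below).

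The alpha subunits of the laminin receptors did not move as a group. Itga6 (chromosome 2, 71745616 to 71858416, plus strand), whose product pairs with Itgb1 or Itgb4, had 238, 250 and 258 CPM in Malt1-WT, against 177, 170 and 169 CPM in the vector control. The Malt1-WT libraries were all higher, by 1.45-fold (log2 fold change 0.53, SE 0.0344, edgeR adjusted p = 2.59e-19). Itga3 (chromosome 11, 95044474 to 95076801, minus strand), whose product pairs with Itgb1 and binds laminins with the alpha-3 or alpha-5 chain, was counted 364, 421 and 340 times in Malt1-WT, against 543, 596 and 597 times in the vector control, or 20.4 ± 0.569 CPM against 29.6 ± 0.355 CPM (SD, n = 3 each). Here the Malt1-WT libraries were all lower, by 1.45-fold (log2 fold change -0.54, SE 0.0726, edgeR adjusted p = 7.82e-09).

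Itgb1 (chromosome 8, 128685654 to 128733200, plus strand) encodes the beta chain shared by most matrix receptors and had the highest level per length of the members. Its level was 977, 952 and 956 CPM in Malt1-WT, against 892, 914 and 915 CPM in the vector control. The groups did not overlap, but the difference was small, 6.05% (log2 fold change 0.08, SE 0.0255, edgeR adjusted p = 0.00344). Scaled by library size alone it was 0.01 on the log2 scale, with an edgeR adjusted p = 0.783, so the call depends on the scaling (0.00195 to 0.783 over 12 alternatives).

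Itgb3 (chromosome 11, 104608000 to 104670476, plus strand) encodes the beta chain of the alpha-v vitronectin receptor, known from osteoclasts, angiogenic endothelium and invasive tumours, and of the platelet fibrinogen receptor. It was counted 2944, 3288 and 2811 times in Malt1-WT, against 269, 336 and 278 times in the vector control. Scaled, that is 165, 164 and 164 CPM in Malt1-WT, against 14.8, 16.5 and 13.8 CPM in the vector control. The Malt1-WT libraries were almost equal and far above the vector control libraries, by 10.9-fold (log2 fold change 3.45, SE 0.0531, edgeR adjusted p = 5.36e-46). A change of this size or larger in either direction was seen in 1.05% of all tested genes. Its platelet partner gene Itga2b had 2.13, 1.10 and 1.93 CPM in Malt1-WT, against 1.66, 1.77 and 1.19 CPM in the vector control, groups that overlap (log2 fold change 0.15, 95% interval -0.44 to 0.74, edgeR adjusted p = 0.691).

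Platelet and endothelial markers were looked at beside Itgb3. No osteoclast markers were listed, and the osteoclast and macrophage gene Acp5, named after its values were seen, was higher in Malt1-WT (log2 fold change 2.49, SE 0.161, edgeR adjusted p = 3.75e-19). Of 5 platelet and megakaryocyte markers 1 was testable, none was called, Pf4 was at 0, and their summed level was 0.760 to 1.17 CPM in Malt1-WT, against 1.10 to 1.47 CPM in the vector control. Of 6 endothelial markers 3 were testable and 2 rose, Pecam1 (9.69 CPM in Malt1-WT, 4.77 CPM in the vector control) and Vwf (7.28 and 2.07 CPM). The summed endothelial level was 17.1 to 18.5 CPM in Malt1-WT and 7.11 to 7.84 CPM in the vector control, and none of these markers was at 0. Cdh5 did not pass, with 33 counts over the Malt1-WT group and 20 over the vector control. Too low to test were Kdr (11 counts in Malt1-WT, 6 in the vector control), Tek (3 and 3 in the same order) and Tie1 (3 and 14). The part of any of these cell types in the Itgb3 result was not tested.

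Of the other genes for alpha-v partners, Itgb5 fell and Itgb8 was not detected. Itgb5 (chromosome 16, 33829665 to 33949338, plus strand), which encodes the second vitronectin-binding beta chain, had 106, 107 and 111 CPM in Malt1-WT, against 137, 133 and 137 CPM in the vector control. All Malt1-WT libraries were lower, by 1.25-fold (log2 fold change -0.33, SE 0.0379, edgeR adjusted p = 1.35e-10). Itgb8 (chromosome 12, 119158022 to 119238802, minus strand), whose product binds and activates latent TGF-beta, had 0 counts in each of the 6 libraries. A count of 0 over a group allows up to 3 counts, or 0.0545 CPM in Malt1-WT and 0.0512 CPM in the vector control, for counting error only. Itgb6, which encodes another activator of latent TGF-beta, had 4, 1 and 2 counts in Malt1-WT and 0 in each vector control library. It was too low to test. Set against a floor of 3 counts over the vector control group, the 7 counts in Malt1-WT gave a ratio of 2.49. That ratio leaves out the counting error of the 7, so it is not a lower limit.

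Itgb7 (chromosome 15, 102215995 to 102231944, minus strand) encodes the beta chain of the lymphocyte homing receptors, which pairs with Itga4 or Itgae. It had 4.70, 6.44 and 6.20 CPM in Malt1-WT, against 17.6, 15.8 and 14.4 CPM in the vector control. The groups were well apart (log2 fold change -1.46, SE 0.120, edgeR adjusted p = 2.2e-15). Itgae fell too, with 11, 11 and 3 counts in Malt1-WT, against 27, 25 and 24 counts in the vector control (log2 fold change -1.51, SE 0.402, edgeR adjusted p = 0.00106). Haspin lies inside an Itgae intron on the opposite strand, without exonic overlap, and had 846 counts in Malt1-WT and 2456 in the vector control; its part in the Itgae counts was not tested. Itga4 was counted 8, 15 and 17 times in Malt1-WT, against 22, 22 and 12 times in the vector control, groups that overlap (log2 fold change -0.39, edgeR adjusted p = 0.398). Its value is uncertain, since Cerkl on the opposite strand shares 1124 exonic bases with it and had 36 counts in Malt1-WT and 41 in the vector control. The Itgae ligand gene Cdh1, E-cadherin, had 16 counts over the Malt1-WT group and 12 over the vector control, and the Itga4 and Itgb7 ligand gene Madcam1 had 6 and 2.

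RefSeq (GRCm38.p6) entries of 300 bases, 250 before and 50 from the start, were found for 8 of the 10 genes, with 9 entries in all. There was none for Itgb3 or Itga6. Shown 5′ to 3′ on the gene's strand are the windows of Itga2 and Itgb7, the members with an entry that rose and fell most, and of Itgav, the shared alpha chain of the Itgb3 and Itgb5 receptors. Capitals mark the GC box GGGCGG or its complement CCGCCC. The positions are chr13:114932051-114932350 (minus strand), chr2:83724147-83724446 (plus strand) and chr15:102231886-102232185 (minus strand).
Itga2: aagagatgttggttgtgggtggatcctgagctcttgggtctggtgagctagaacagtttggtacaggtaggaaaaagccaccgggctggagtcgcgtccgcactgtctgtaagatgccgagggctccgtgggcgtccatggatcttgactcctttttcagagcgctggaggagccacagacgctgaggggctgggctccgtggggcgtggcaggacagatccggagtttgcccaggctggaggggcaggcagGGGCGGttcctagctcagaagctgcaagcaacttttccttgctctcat
Itgav: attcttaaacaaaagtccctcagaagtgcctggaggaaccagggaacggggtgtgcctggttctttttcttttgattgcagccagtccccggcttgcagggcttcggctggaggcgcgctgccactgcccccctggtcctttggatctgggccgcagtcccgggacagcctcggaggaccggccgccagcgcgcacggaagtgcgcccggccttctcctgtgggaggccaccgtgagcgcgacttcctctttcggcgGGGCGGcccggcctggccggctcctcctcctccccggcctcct
Itgb7: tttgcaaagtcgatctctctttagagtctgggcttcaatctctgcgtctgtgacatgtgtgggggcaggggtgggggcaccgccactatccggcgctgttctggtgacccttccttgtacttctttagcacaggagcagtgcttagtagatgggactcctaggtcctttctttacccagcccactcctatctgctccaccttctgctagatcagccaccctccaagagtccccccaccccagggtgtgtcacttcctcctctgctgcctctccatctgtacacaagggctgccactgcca

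The motifs searched, on both strands, were the GC box (GGGCGG), an AP-1 site (TGANTCA) and a kappa-B-like site (GGG, then 2 bases of any kind, then TTTCC). The kappa-B-like letters were in none of the 9 member windows and in 1.63% of all 32851 windows. The AP-1 letters were in 1 of the 9, an Itga3 window, and in 7.81% of all windows. A GC box was in 7 of the 9 and in 35.7% of all windows. Both Itga3 windows, Itga5 and Itgb1 held it. Itga2 held 1 at position 3 after the start, Itgav held 1 at position 8, Itgb5 held 3, and Itgb7 and Itgb8 held none. The GC box is made of G and C only. The 9 member windows were 52.3% to 67.3% G and C, beside a median of 52.7% over all windows. The part of base content in the GC box share was not tested. No match overlapped another in the windows shown. These are descriptions of letters in a short window.

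Levels of different genes were set side by side as RPKM, the TMM-scaled CPM divided by the union length of a gene's annotated exons in kilobases. In Malt1-WT the order was Itgb1 (236), Itga5 (56.9), Itgb5 (30.4), Itgb3 (27.9), Itga6 (27.6), Itgav (23.9), Itga3 (3.58), Itgb7 (2.09), Itga2 (0.668) and Itgb8 (0) RPKM. Only the neighbours Itgb3 and Itga6 overlapped between libraries there. In the vector control it was Itgb1 (222), Itgb5 (38.2), Itga5 (28.4), Itga6 (19.1), Itgav (12.9), Itgb7 (5.75), Itga3 (5.19), Itgb3 (2.55), Itga2 (0.0587) and Itgb8 (0) RPKM. Itgb7 and Itga3 overlapped between those libraries. Itgb3 thus stood above Itgav in Malt1-WT and below Itga3 in the vector control. Divided by the longest annotated transcript in place of the union, Itga6 had 57.8 RPKM in Malt1-WT and 39.9 RPKM in the vector control, and Itgav 36.5 and 19.7 RPKM, so that Itgb3, at 28.4 RPKM in Malt1-WT, came below both and the order among the middle members depends on the length used.

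The make-up of the integrin mRNA pool shifted with these changes. Among the 5 alpha genes, the summed level was 113 ± 3.77 RPKM in Malt1-WT and 65.6 ± 1.52 RPKM in the vector control (SD, n = 3 each), a ratio of 1.72. Among the 5 beta genes it was 296 ± 2.60 RPKM in Malt1-WT and 269 ± 2.39 RPKM in the vector control, a ratio of 1.10. In both sums the groups were apart, and the exact two-sided permutation test gave p = 0.10, the smallest that 3 libraries against 3 allow. Itgb3 made up 9.41% ± 0.0674 of the beta sum in Malt1-WT and 0.950% ± 0.0847 in the vector control, while Itgb5 made up 10.3% ± 0.305 in Malt1-WT and 14.2% ± 0.291 in the vector control. The ratio of Itgb3 to Itgb5 was 0.935, 0.923 and 0.889 in Malt1-WT, against 0.0654, 0.0746 and 0.0608 in the vector control (exact two-sided permutation p = 0.10, again the smallest possible). The 2 vitronectin-binding beta transcripts were therefore near equal per length in Malt1-WT, and Itgb5 far exceeded Itgb3 in the vector control. The level of Itgav relative to Itgb1 was 0.0970, 0.104 and 0.104 in Malt1-WT, against 0.0576, 0.0581 and 0.0590 in the vector control (exact two-sided permutation p = 0.10). With the longest transcript as the length, the ratio of the alpha sums was 1.67. Itga6 then led the alpha share in the vector control (40.9%, against 32.5% for Itga5), where the union length put Itga5 first (43.2%, against 29.0% for Itga6). These values are mRNA shares, and subunit protein and surface receptors were not measured.

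**Figure D2:**
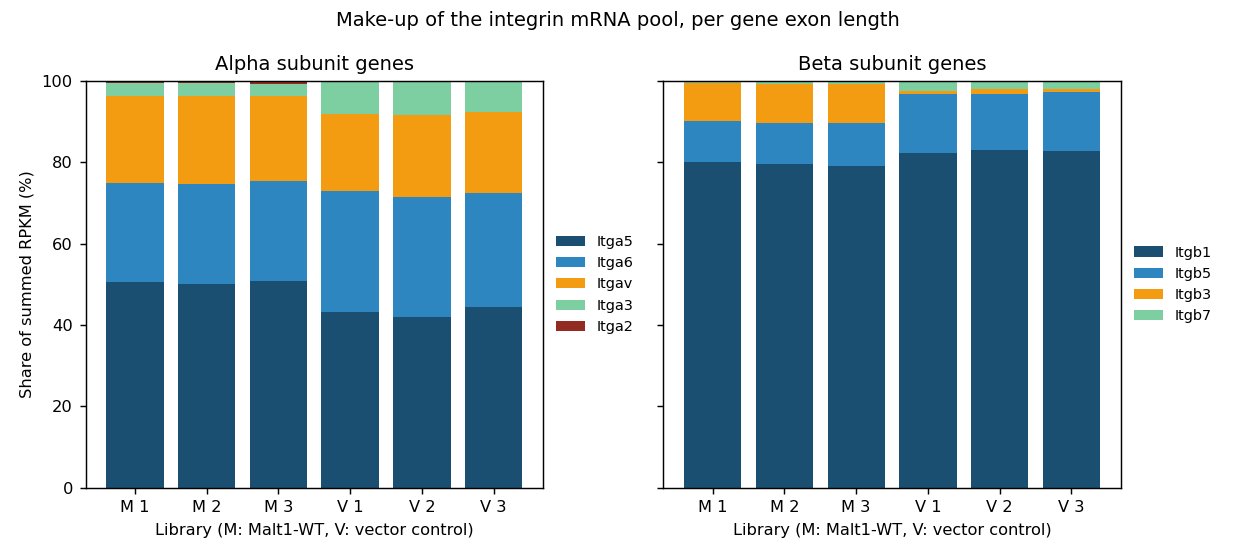
Share of the summed RPKM (%) taken by each alpha member (left panel) and each beta member (right panel) in the 3 Malt1-WT libraries (M) and the 3 vector control libraries (V). Lengths are union exon lengths, and other integrin genes are left out of the sums. The Itgb3 band is thick in Malt1-WT and thin in the vector control (9.41% against 0.950% on average), while Itga3 is thicker in the vector control (3.18% of the alpha sum in Malt1-WT, 7.91% in the vector control). Itgb8, at 0, has no band.

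Of the 17 other integrin subunit genes, 10 passed the filter, 3 rose, 2 fell and 5 did not pass the test, with a median log2 fold change of -0.33. Itga7, the alpha chain of a muscle-type laminin receptor, had 98.8, 108 and 109 CPM in Malt1-WT, against 60.9, 55.0 and 64.6 CPM in the vector control. It was higher in every Malt1-WT library, by 1.75-fold (log2 fold change 0.81, SE 0.0490, edgeR adjusted p = 4.83e-20). Itga1 fell, with 23.5, 27.7 and 27.3 CPM in Malt1-WT, against 34.3, 30.5 and 33.4 CPM in the vector control (log2 fold change -0.32, SE 0.0715, edgeR adjusted p = 0.000114). Itgb4, the hemidesmosomal partner of Itga6, had 1.73, 2.95 and 3.51 CPM in Malt1-WT, against 3.31, 3.29 and 3.78 CPM in the vector control, and did not pass (log2 fold change -0.34, edgeR adjusted p = 0.160), though it was called lower without Malt1-WT replicate 3 (-0.56, edgeR adjusted p = 0.0421). Itga10, a collagen receptor chain, was at -0.49 (edgeR adjusted p = 0.0535) and passed as lower in 4 of the 12 alternatives, among them without Malt1-WT replicate 1 (-0.69, edgeR adjusted p = 0.0172) and without vector control replicate 3 (-0.67, edgeR adjusted p = 0.0130). It shares 1739 exonic bases with Gm42957 on the same strand, to which 3 counts in Malt1-WT and 6 in the vector control were assigned, so its value is uncertain too.

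Among the leukocyte integrins, Itgax, the alpha chain known as CD11c, was counted 71, 74 and 68 times in Malt1-WT, against 22, 35 and 27 times in the vector control (log2 fold change 1.43, SE 0.227, edgeR adjusted p = 2.89e-07). Its beta partner Itgb2 had 7.83, 6.44 and 7.78 CPM in Malt1-WT, against 5.41, 5.65 and 5.62 CPM in the vector control (log2 fold change 0.40 with SE 0.138, edgeR adjusted p = 0.0114). The Itgb2 call was lost without Malt1-WT replicate 1 (edgeR adjusted p = 0.0558) and without Malt1-WT replicate 3 (0.0513). Itgal did not pass (-0.42, edgeR adjusted p = 0.225). Of 10 leukocyte markers 5 were testable, 2 rose and 2 fell, with a summed level of 28.5 to 32.3 CPM in Malt1-WT and 22.8 to 26.5 CPM in the vector control. The macrophage markers Adgre1 (81 counts over the Malt1-WT group, 3 over the vector control) and Cd68 (787 and 264 counts in the same order) rose, while Fcer1g (671 and 870) and Lyz2 (41 and 221) fell. Csf1r did not pass (52 and 30 counts). Tyrobp was at 0 in all libraries, and Ptprc, the pan-leukocyte gene, had 4 counts over the Malt1-WT group and 3 over the vector control, beside 213 and 84 counts of Itgax in the same order. The part of such cells in the results for Itgb7, Itgae, Itgax and Itgb2 was not tested.

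**Figure D3:**
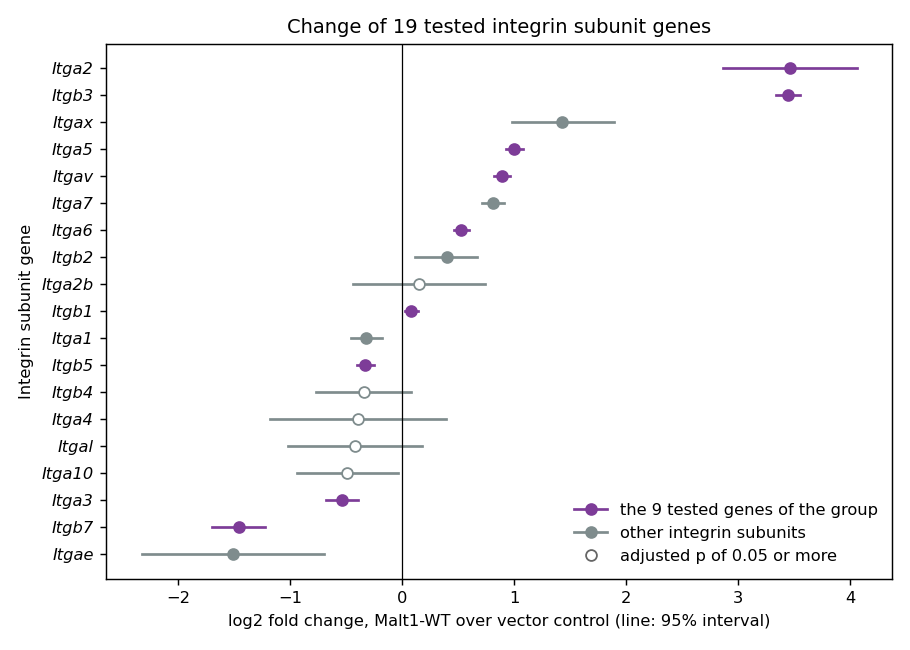
log2 fold change of Malt1-WT over vector control for the 19 tested integrin subunit genes, with lines for the 95% interval of the fit over 3 libraries a group. Filled points passed the test at an adjusted p under 0.05. Itga2 (3.46) and Itgb3 (3.45) stand to the right of all others, and Itgae (-1.51) and Itgb7 (-1.46) are farthest left.

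Genes that work with integrins were grouped into 5 lists, of which 76.9% to 94.1% of the tested genes were called, beside 61.2% of all tested genes. Ligand genes went both ways. Of 19 tested genes for ligands with an RGD or related binding site, or for their latency proteins, 5 rose, 10 fell and 4 did not pass (median log2 fold change -0.32). Ccn1, a matricellular ligand of alpha-v receptors, had 155 ± 4.86 CPM in Malt1-WT and 22.9 ± 0.654 CPM in the vector control (SD, n = 3 each, log2 fold change 2.76, edgeR adjusted p = 2.37e-43). Tnc, tenascin-C, rose as well, with 222 ± 16.3 CPM in Malt1-WT and 55.0 ± 2.39 CPM in the vector control. Thbs2, a thrombospondin, fell most, with 14.2 ± 1.17 CPM in Malt1-WT and 81.6 ± 0.506 CPM in the vector control (log2 fold change -2.52, edgeR adjusted p = 1.73e-36). Angptl4 (-2.10) and Lrrc32, which encodes a docking protein of latent TGF-beta (-1.27), fell too.

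Spp1, osteopontin, a ligand of the alpha-v receptors, had 2233 ± 34.3 CPM in Malt1-WT and 3783 ± 58.5 CPM in the vector control (SD, n = 3 each, log2 fold change -0.76, edgeR adjusted p = 3.21e-33). Mfge8, another RGD protein, rose by 0.32 on the log2 scale. Fn1, fibronectin, had 64.0 ± 1.13 CPM in Malt1-WT and 81.4 ± 3.55 CPM in the vector control (log2 fold change -0.35, edgeR adjusted p = 5.76e-09). Vitronectin, the name-giving ligand of the Itgb3 and Itgb5 receptors, was near the limit of detection, with 6 counts of Vtn over the Malt1-WT group and 11 over the vector control.

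Among 17 tested laminin, collagen and cell-surface ligand genes, 6 rose, 10 fell and 1 did not pass (median log2 fold change -0.24). The abundant collagen genes were lower in Malt1-WT, with 589 ± 18.0 CPM of Col6a1 in Malt1-WT and 987 ± 18.2 CPM in the vector control (SD, n = 3 each) and with Col4a1 at 584 ± 16.0 and 762 ± 14.3 CPM. Col1a1 fell by 0.88 on the log2 scale (10.9 ± 1.57 CPM in Malt1-WT, 20.1 ± 1.19 CPM in the vector control). The laminin chain gene Lama3 (log2 fold change 2.37) rose at a low level, 7.14 CPM in Malt1-WT, against 1.37 CPM in the vector control. The counter-receptor genes of leukocyte integrins rose as well, Icam1, the ligand of Itgal and Itgb2 receptors, to 111 ± 2.03 CPM in Malt1-WT, against 15.9 ± 0.576 CPM in the vector control, and Vcam1, the ligand of Itga4 receptors, to 35.1 ± 2.40 CPM, against 7.83 ± 0.0745 CPM.

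Proteins that bind or activate integrin tails showed no common direction, as 12 of 31 tested genes rose, 13 fell and 6 did not pass (median log2 fold change 0.00). Tln2, the second talin gene, fell to 101 ± 5.12 CPM in Malt1-WT, against 207 ± 2.73 CPM in the vector control (SD, n = 3 each, log2 fold change -1.04, edgeR adjusted p = 8.32e-30). The tensin gene Tns2 (-1.31) and the filamin gene Flnc (-0.99) fell too. Lims2, a partner of integrin-linked kinase (1.76), and Rap1b, a small GTPase of the activation pathway (1.01), rose, Rap1b to 643 ± 12.8 CPM in Malt1-WT, against 319 ± 8.71 CPM in the vector control. The filamin gene Flna and the actinin gene Actn1, counted most often in the list, rose by 0.16 and 0.28 on the log2 scale.

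Of 26 tested signalling kinases and scaffolds, 10 rose, 10 fell and 6 did not pass (median log2 fold change 0.00). The kinase gene Src rose to 208 ± 3.71 CPM in Malt1-WT, against 113 ± 0.489 CPM in the vector control (SD, n = 3 each, log2 fold change 0.88, edgeR adjusted p = 7.8e-28). Its scaffold substrate gene Bcar1 (0.70) and the exchange factor gene Arhgef7 (0.78) rose, while the actin regulator genes Evl (-0.62) and Pak1 (-0.57) fell. Rhoa was at 0.05 (edgeR adjusted p = 0.115), and Cdc42 fell by 0.23.

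Among trafficking and membrane partners, 14 of 25 tested genes rose, 6 fell and 5 did not pass (median log2 fold change 0.20). Plaur, the urokinase receptor, which binds integrins laterally, rose to 146 ± 7.40 CPM in Malt1-WT, against 34.1 ± 2.78 CPM in the vector control (SD, n = 3 each, log2 fold change 2.09, edgeR adjusted p = 4.44e-37). The tetraspanin gene Cd82 (1.02), Emp2 (1.17) and the syndecan gene Sdc4 (0.94) rose. The caveolin gene Cav1 fell to 180 ± 4.79 CPM in Malt1-WT, against 485 ± 6.43 CPM in the vector control (log2 fold change -1.43, edgeR adjusted p = 2.69e-39). Sdc1, another syndecan gene, was at 0.02 (edgeR adjusted p = 0.534), and at -0.06 with library size only (edgeR adjusted p = 0.0382).

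**Figure D4:**
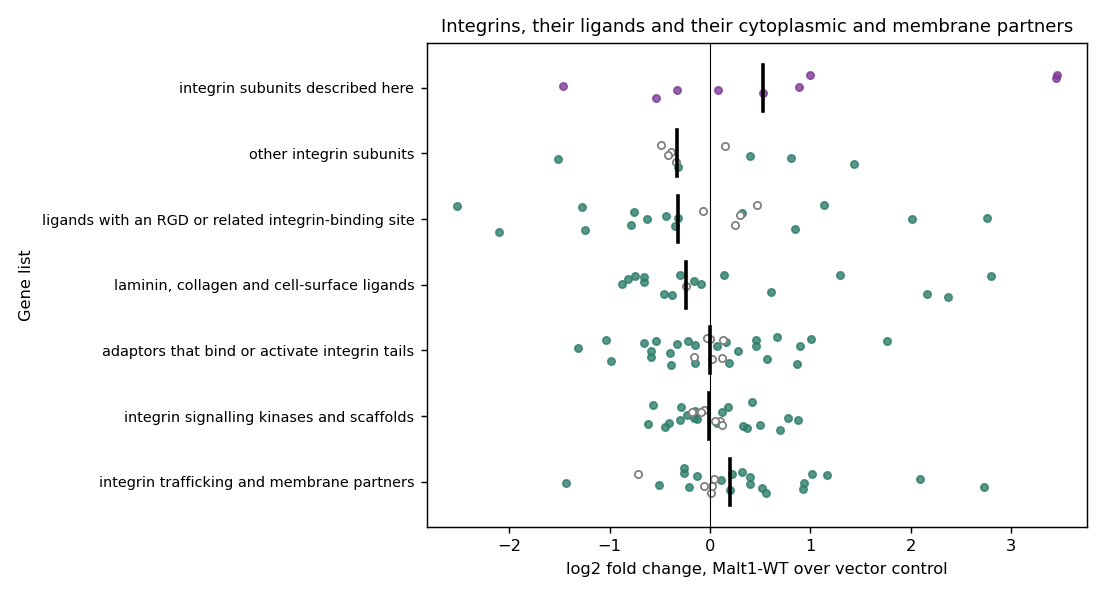
log2 fold change of Malt1-WT over vector control for each tested gene of the integrins described here and of 6 gene lists, filled where the adjusted p was under 0.05, with black bars at list medians. The medians lie between -0.33 and 0.53, and each list holds genes on both sides of 0.

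Likeness of change was measured over the 128 tested genes of the lists, as the difference in log2 fold change over the 6 libraries. Nearest to Itga2 (3.46) among these, which leave out the members, were Icam1 (2.80), Ccn1 (2.76) and the recycling adaptor gene Rab11fip1 (2.73), all lower than Itga2 by at least 0.659. Nearest to Itgb7 (-1.46) were Cav1 (-1.43), Itgae (-1.51) and Tns2 (-1.31).

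The authors' deposited table gives its own log2 fold changes, 3.44 for Itgb3, 3.56 for Itga2 and -1.47 for Itgb7. Of the 10 members, 1 (Itgb3) has in the authors' deposited table an adjusted p under 0.05 (4.96e-05), and Itga2 follows with 0.0638. The t statistic in the authors' deposited table is 0 for 7 of the 10, as for all 50004 genes whose log2 fold change there lies between -1 and 1. The authors' p is therefore unlike the edgeR p, which tests for a change of any size, and the 2 cannot be set side by side.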

How the data were processed

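Libraries analysed were 3 of E0771 with wild-type Malt1 and 3 of E0771 with vector, grouped and numbered by title. The submitters' processing notes name featureCounts 1.6.3, STAR 2.7.3a, Trim Galore 0.6.0 and the build GRCm38.p6 (mm10). Per the labels' protocols the library kit keeps strand (NEBNext Ultra II Directional), but neither the annotation nor the strandedness of counting is stated. Per the file headers and values, the authors deposited raw counts per gene symbol, 1 column per library. Other columns of the table deposited by the authors hold, per gene, log2 fold change, mean log2 expression, a t statistic (a score), p-value and adjusted p-value, with no tool named.

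Counts were fitted with edgeR 4.0.16 in R 4.3.3: filterByExpr with a minimum count of 10 kept 13594 of 55571 genes, libraries were scaled by TMM, and the robust quasi-likelihood test compared Malt1-WT with vector control without a block. Genes were called at a Benjamini-Hochberg adjusted p under 0.05. The SE is the size of the log2 fold change over the square root of F. The fit was also run on simulated counts in which few genes were changed, as many up as down. That run does not cover data in which 61.2% of tested genes are called, and its outcome is not reported here. Alternatives were DESeq2 1.42.0, 3 other scalings, no filter, a replicate block and each library left out. As a check for copied libraries, chi-square per degree of freedom between libraries of a group was 2.19 to 3.01. No pair was closer than counting error allows, and all 6 libraries were kept. The check does not measure library quality. Positions and lengths come from GENCODE M21 (GRCm38), which may differ from the annotation used for counting. Without a known strand setting, reads of genes overlapping on opposite strands cannot be told apart; Itgav overlaps the antisense gene Gm13684 over 634 exonic bases, to which 4 counts per group were assigned. Of the other tested integrins, Itga4, Itga7 and Itgb4 share exonic bases with a gene on the opposite strand, and Itga1 and Itga10 with one on the same strand. Floors cover counting error only. The intervals are built from the SE of the quasi-likelihood fit, so they include its estimate of the spread between libraries. The members and the lists were chosen with earlier results of these data known. Genes named besides the members are the other tested integrins, up to 5 with the largest change and the 2 most abundant per list (1 of these is not reported here), and the nearest 3 to the extreme members; Fn1, Vtn, Cdh1, Madcam1, Acp5, Itgb6 and the marker genes were named after their values were seen.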

Additional observations from a re-analysis of the deposited data

How the results depend on the processing

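Under 12 alternatives each, the 9 tested members kept their direction and their side of the threshold in 107 of 108 cases, the exception being Itgb1 with library size only (log2 fold change 0.01, adjusted p = 0.783). Members called were 6 higher and 3 lower in every alternative except library size only (5 higher). Itgb3 ranged from 3.37 to 3.52, Itga2 from 3.18 to 4.15 (4.15 without vector control replicate 2) and Itgb7 from -1.55 to -1.33. Over the 55 genes named, 651 of 660 cases kept call and direction. Sdc1 turned from 0.02 to -0.06 with library size only (edgeR adjusted p = 0.0382). In that setting the median log2 fold change over all tested genes moved from -0.003 to -0.079. A cause particular to Sdc1 was not tested. No label pairs the libraries by replicate number, and the deviations of same-numbered libraries had correlations of -0.0261, -0.0207 and 0.0174. Such values, taken over all tested genes at once, do not exclude a shared culture or batch. With the replicate block, 6 members were higher and 3 lower, and over all genes 4134 were higher and 4034 lower, against 4210 and 4110 without it. Itga2 and the leukocyte integrins rest on few counts, which limits the precision of their size. Union and longest-transcript lengths gave other RPKM levels. The ratio between groups of a single gene cannot change with the length, since both groups are divided by the same one. The ratio of the alpha sums was 1.72 with the union and 1.67 with the longest transcript, and that of the beta sums was 1.10 with either.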
